A study of Mus musculus with 12 samples.

Results

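In the islets of Ppy-YFPi mice, 137 YFP-negative cells held the transcripts of both pancreatic polypeptide (Ppy) and somatostatin (Sst), and these Ppy+Sst+ bihormonal cells are described here. They made up 137 of the 3184 YFP-negative cells, and of the 5982 cells of the single-cell series. A cell was taken as Ppy+Sst+ when its level, the natural log of 1 plus its UMIs (unique molecular counts) per 10000, lay above 3.23 for Ppy and above 3.32 for Sst. These levels are 24.3 and 26.7 UMIs per 10000. Its Gcg (glucagon) level could not exceed 5.12 and its Ins2 (insulin) level could not exceed 6.36. Cells with a level over 3 for Cd74, Col3a1 or Plvap, markers of immune, stromal and endothelial cells, were dropped. The cells were thus chosen by their own values of Ppy, Sst, Gcg, Ins2 and these 3 markers, and the levels of these genes are given as a description only.

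Ppy-YFPi mice are Ppy-rtTA; TetO-Cre; R26-YFP animals of mixed background, in which rtTA stands in for the coding sequence of 1 Ppy allele, so that every cell of the single-cell series came from animals with a single intact Ppy allele. Doxycycline (DOX, 1 mg/ml) was given in their drinking water 1 month before sampling. At 2 months of age, islet cells were sorted into a YFP+ and a YFP- fraction. DOX lets rtTA switch on Cre, which then turns on YFP for good in that cell. Islets of several mice were pooled in each of 2 independent experiments, and each fraction of an experiment was 1 library, so that fraction and library cannot be told apart. Any p-value from the single-cell series rests on how differences between classes varied between these 2 experiments. That spread was estimated over all classes of a fit together. GEO's labels describe the YFP- libraries as cells that do not express Ppy.

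The YFP- libraries held 1495 cells in experiment 1 and 1689 in experiment 2. Of these, 78 and 59 cells were Ppy+Sst+, whereas 135 and 141 were Sst-only cells, which passed the same rule but lay at or under the Ppy threshold. In the YFP+ fraction, 102 and 159 cells were Ppy+Sst+ and 721 and 828 were Ppy-only. The YFP- fraction held 2 and 14 Ppy-only cells. A further 53 YFP- cells passed both the Ppy and the Sst threshold but exceeded the Gcg limit, and 6 exceeded the Ins2 limit. Among all 4 libraries, 19 cell barcodes occurred in more than 1 library, of which 4 were shared by both fractions of an experiment, and 2 Ppy+Sst+ cells of the YFP- fraction carried a shared barcode.

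Pancreatic polypeptide is a peptide of the NPY family and the hormone of γ-cells, which slows exocrine secretion and gut motility after a meal. Somatostatin, the hormone of δ-cells, acts on neighbouring cells and restrains the release of insulin and glucagon. δ-cells depend on the homeobox factor Hhex for their identity. Peptide YY (Pyy), a close relative of pancreatic polypeptide, is made by several islet cell types in the mouse. On the GRCm38 genome, Ppy (chromosome 11, 102099930 to 102101319) and Pyy (chromosome 11, 102106676 to 102107832) lie 5356 bases apart on the same strand. Sst is on chromosome 16 (23889573 to 23890958) and Hhex on chromosome 19 (37434810 to 37440731).

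The Ppy content of the 137 cells spread widely. In experiment 1 the cells held from 8 to 213 Ppy UMIs, with a median of 74. In experiment 2 they held from 3 to 489, with a median of 34. Per 10000 UMIs, the medians were 161 and 105 in experiments 1 and 2. The cells closest to the threshold had Ppy levels of 3.31 and 3.27 on the inner side and 3.23 and 3.21 on the outer side, and 17 and 29 Sst+ cells lay within 0.5 of it. Ppy therefore did not split Sst+ cells at a gap, and the border between the classes is a point in a range. Among the Ppy+ cells of experiment 1, Sst left a gap, with the lowest Ppy+Sst+ cell at 6.73 and the nearest cell outside at 1.54. The lowest Sst-only cells stood inside that range, at 3.75 in experiment 1 and 3.45 in experiment 2. In experiment 2, 1 cell was at an Sst level of 3.37 with 489 Ppy UMIs and 8 Sst UMIs, and the next lowest cell was at 6.15.

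**Figure D1:**
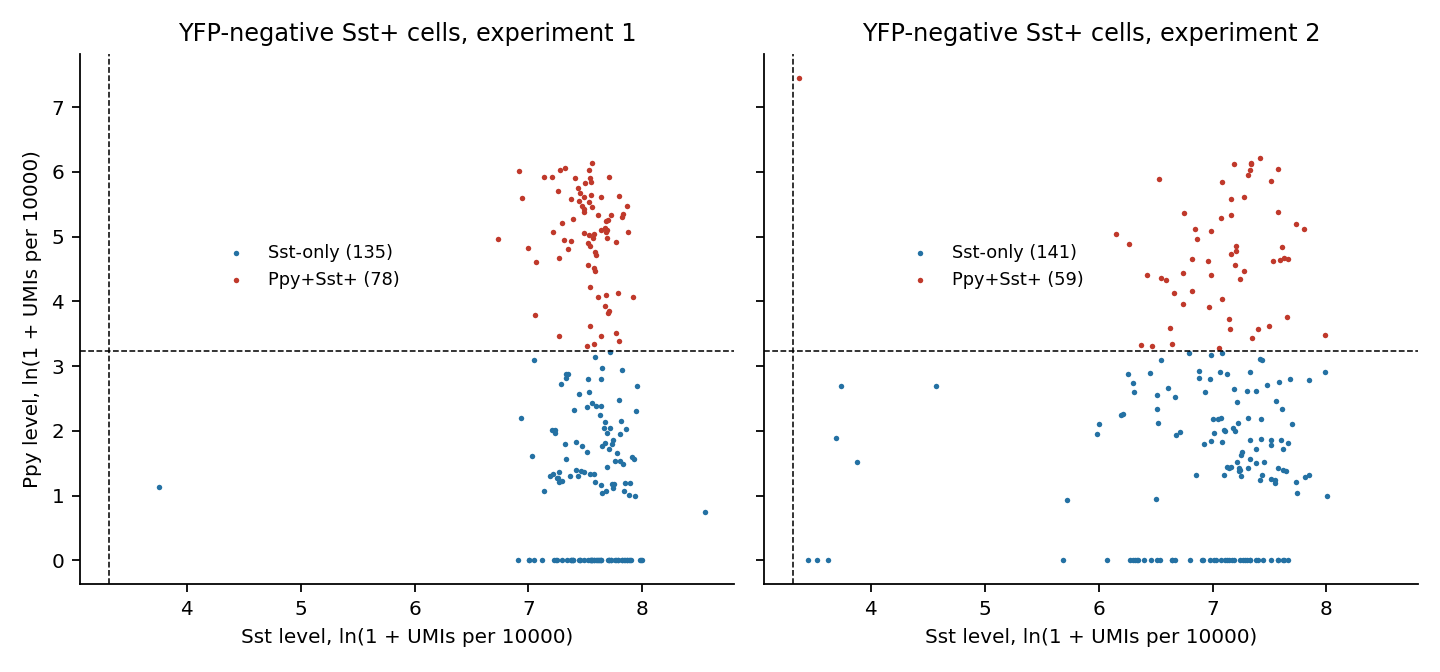
Ppy level against Sst level of each YFP-negative Sst+ cell, as ln(1 + UMIs per 10000), with 1 panel for each experiment and dashed lines at the thresholds of 3.23 and 3.32. Each point is a cell, Ppy+Sst+ in red (78 and 59) and Sst-only in blue (135 and 141), and the Ppy levels run through the threshold with no gap, while 1 cell of experiment 2 stands alone at high Ppy and low Sst.

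Ppy above the threshold was found in a larger share of Sst+ cells than of YFP- cells with another single hormone or none. In experiment 1, 36.6% of Sst+ cells exceeded it (78 of 213, exact 95% binomial interval 30.1 to 43.5%), and in experiment 2, 29.5% did (59 of 200, 23.3 to 36.3%). Among Gcg+ cells the share was 12.1% and 10.2%, and among Ins2+ cells 2.46% and 3.16%. Cells without another hormone exceeded the threshold in 1.14% and 4.14% of cases. Of the dropped Cd74, Col3a1 or Plvap cells, which should lack Ppy, 0 of 231 (interval up to 1.58%) and 7 of 554 (1.26%) did so. The intervals cover counting error only. The share in Sst+ cells was above that in each of these other classes in both experiments. Cells over the threshold of more than 1 of Sst, Gcg and Ins2 had a lower share than Sst+ cells in experiment 1 and a higher one in experiment 2, with overlapping intervals, at 26.3% (15 of 57, 15.5 to 39.7%) and 39.0% (46 of 118, 30.1 to 48.4%). Of these cells 50 and 101 were above the Sst threshold, and their median depth was 16114 and 11270.5 UMIs.

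The order of the classes with at most 1 of these hormones was the same at equal depth. Cells were thinned to 2000 UMIs, with 5 Ppy UMIs needed to pass, and 5 and 58 Sst+ cells under that depth were left out. The share was then 36.5% and 30.3% in Sst+ cells, 15.2% and 11.1% in Gcg+ cells, and 2.46% and 3.16% in Ins2+ cells. It was 1.33% and 5.22% in cells without another hormone and 0% and 2.21% in the dropped cells. A single Ppy UMI was far more common than a level above the threshold. It was found in 74.2% and 78.0% of Sst+ cells (median depth 4162 and 2986.5 UMIs) and also in 26.3% and 35.5% of stromal Col3a1 cells (median depth 3630.5 and 2427 UMIs), so that a single UMI is not read as expression here. Seen from the other hormone, 97.5% (78 of 80) and 80.8% (59 of 73) of the YFP- cells that held Ppy, with Gcg and Ins2 under their limits, were Sst+. In the YFP+ fraction, 12.4% and 16.1% of such cells were Sst+.

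**Figure D2:**
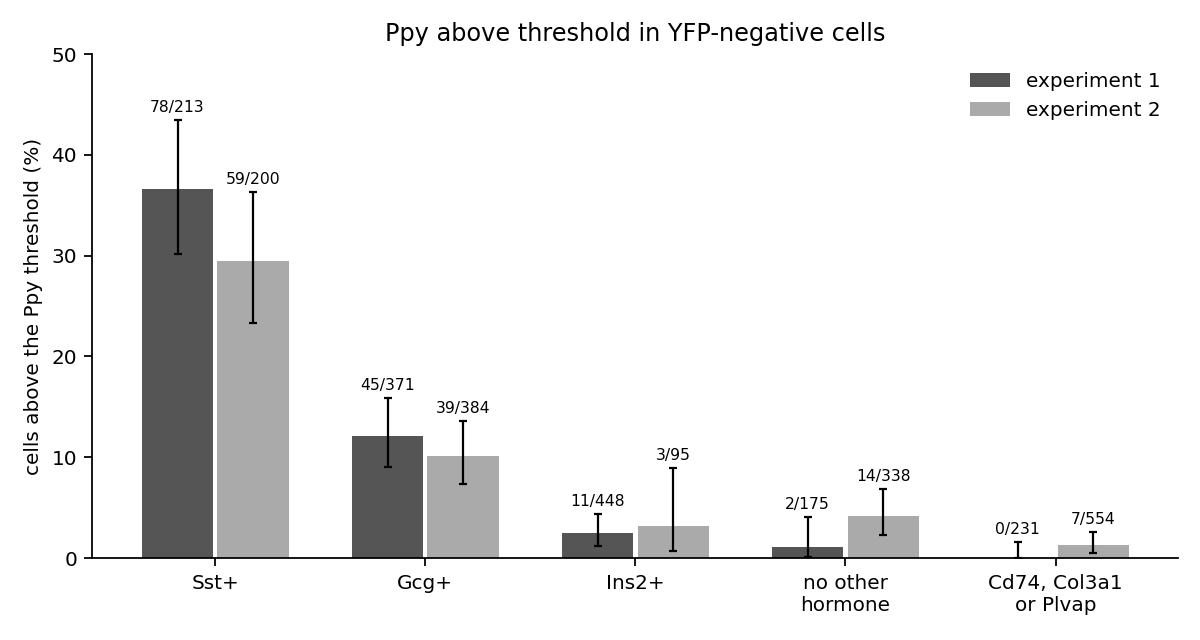
Percentage of YFP-negative cells above the Ppy threshold in 5 classes and each experiment, with exact 95% binomial intervals as error bars. Sst+ cells stand at 36.6% and 29.5%, Gcg+ cells at 12.1% and 10.2%, and the remaining classes under 5%.

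The Ppy level of the YFP- Ppy+Sst+ cells lay between that of Sst-only cells and that of labelled cells. Summed over cells and given as CPM (UMIs of a gene scaled to 1 common total for every class), Ppy reached 18783 and 18647 CPM in the YFP- Ppy+Sst+ cells. Sst-only cells had 394 and 589 CPM, and stromal cells of the same libraries, which should lack Ppy, had 81.6 and 190 CPM. YFP+ Ppy+Sst+ cells had 125149 and 150016 CPM, and YFP+ Ppy-only cells had 257615 and 245125 CPM. In the YFP+ libraries stromal cells already held 6917 and 10781 CPM of Ppy, along with 260 and 156 CPM of YFP and no rtTA UMI, and all YFP+ cells but 1 exceeded the Ppy threshold, so that there the threshold selects on Sst alone. The order of the 4 classes was the same in both experiments, with no overlap between them. Without 5 YFP- Ppy+Sst+ cells that carried markers of other cell types or little Sst, Ppy stood at 18750 and 17019 CPM in the YFP- Ppy+Sst+ cells.

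Reporter transcripts were almost absent. YFP had 0 UMIs in the 137 cells (exact Poisson 95% interval up to 7.04 CPM), against 199 and 125 CPM in YFP+ Ppy+Sst+ cells. rtTA, which reads out the engineered Ppy allele, had 0 UMIs in experiment 1 and 3 in experiment 2, the latter in 2 cells. For every 1000 Ppy UMIs this gave 0.306 rtTA UMIs over both experiments (0.0630 to 0.893, exact Poisson interval). YFP+ Ppy+Sst+ cells had 2.82 rtTA UMIs per 1000 Ppy UMIs in experiment 1 (2.46 to 3.23) and 1.03 in experiment 2 (0.883 to 1.20). YFP+ Ppy-only cells had 1.91 and 1.09. The YFP- cells of experiment 1 had 0 (up to 0.590) and those of experiment 2 had 0.842 (0.174 to 2.46), the latter interval holding the YFP+ value. The 213 rtTA UMIs of YFP+ bihormonal cells in experiment 1 lay in 36 of 102 cells. These intervals cover counting error only, the ratio is to a gene of the rule, and the classes were not tested against each other for it. The cells were sorted for lack of YFP, so its level is given as a description only. Other YFP- classes held a few YFP UMIs, with 2 in Sst-only, 8 in Gcg-only and 10 in Ins2-only cells.

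Hormones and the δ-cell factor Hhex were compared with those of Sst-only cells next, since both classes shared library, sort and animals. Sst, used by the rule, had a median of 1885 UMIs per 10000 in Ppy+Sst+ cells and 1977 in Sst-only cells of experiment 1, and 1284 against 1268 in experiment 2. Hhex had at least 1 UMI in 53.8% of Ppy+Sst+ and 51.9% of Sst-only cells of experiment 1, and in 45.8% and 48.2% in experiment 2. Its summed level was 183 and 188 CPM in Ppy+Sst+ cells and 193 and 249 CPM in Sst-only cells, a log2 fold change of -0.23 (SE 0.29, 95% interval -0.86 to 0.39). Pyy stood at 53111 and 31706 CPM against 40089 and 31635 CPM, a log2 fold change of 0.19 (SE 0.16, interval -0.15 to 0.54), of which experiment 1 gave 0.38 and experiment 2 gave -0.02. Neither gene passed the test (adjusted p = 1 by edgeR's quasi-likelihood test with Benjamini-Hochberg adjustment). Of the markers of the class, Hhex is the one outside the rule, since Ppy and Sst chose the cells. Cells that should lack Hhex seldom held a UMI of it, with 0% and 2.48% of stromal cells (median depth 3630.5 and 2427 UMIs) and 0.229% and 1.09% of Ins2-only cells (23832 and 12529 UMIs).

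Gcg and Ins2, kept low by the rule, had medians of 15.0 and 40.8 and of 94.0 and 40.1 UMIs per 10000 in Ppy+Sst+ cells. Sst-only cells had 14.0 and 44.6 for Gcg and 98.0 and 41.2 for Ins2. Stromal cells of the same libraries held Ins2 at 9572 and 3543 CPM, close to the 9950 and 4013 CPM of the Ppy+Sst+ cells, and Gcg at 1484 and 3780 CPM against 1679 and 4201 CPM. Iapp, the amyloid peptide made by β- and δ-cells, stood at 32806 and 31261 CPM in Ppy+Sst+ and 36666 and 32030 CPM in Sst-only cells.

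Ppy+Sst+ cells held about as many UMIs and genes as Sst-only cells. Their median depth was 4209.5 UMIs against 4130 in experiment 1 and 3039 against 2942 in experiment 2, a ratio of 1.02 and 1.03. The median number of genes was 1411.5 against 1385 and 1184 against 1173, and the median mitochondrial share 3.30% against 3.34% and 3.25% against 3.04%. A nearest-neighbour doublet caller marked 11 of 78 and 1 of 59 Ppy+Sst+ cells, and 8 of 135 and 0 of 141 Sst-only cells. Leaving these cells out kept the number of called genes described next at 2.

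Ppy apart, a single gene was called between Ppy+Sst+ and Sst-only cells. UMIs were summed per class and experiment and tested with edgeR, and calls needed an adjusted p no higher than 0.05 together with a change over 0.5 on the natural-log scale (0.72 on the log2 scale). Of 8110 genes tested, 2 were called (0.0247%), 1 higher (0.0123%) and 1 lower (0.0123%). The higher gene was Ppy (log2 fold change 5.26, SE 0.20), which the rule had chosen. The lower gene was Fcgbp, a mucus protein of goblet cells (log2 fold change -2.38, SE 0.36, adjusted p = 0.0369, edgeR), which was named after its values were seen. It was found in experiment 2 only, where 142 of the 154 UMIs of Sst-only cells lay in 1 cell, while 12 Ppy+Sst+ cells held 13 UMIs. Cells with over 50 UMIs per 10000 of markers of other cell types, or with an Sst level at or under the threshold plus 2, are called cells of doubtful type below. Without them Fcgbp had a change of 1.81 and no call, and Ppy alone was called (1 of 8193 genes, 0.0122%). DESeq2 called Ppy alone as well. With only the 2 classes in the fit 28 genes were called, 27 of them lower, and without a filter on low counts 38, of which 36 were lower. Without the cells of doubtful type these numbers were 1 and 2. Without the genes of the rule, 331 of 8104 genes (4.08%) had an unadjusted p under 0.05, 134 higher and 197 lower.

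The sums set narrow limits on the change of abundant genes only. For 892 of the 913 genes with at least 100 CPM in both classes (97.7%), the 95% interval of the change lay within 2-fold in either direction, and the median SE was 0.21 on the log2 scale. Over all 8104 genes this held for 28.8%, so that for most genes of low level the interval reached beyond 2-fold. An interval within 2-fold does not mean that a 2-fold change would have been called.

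**Figure D3:**
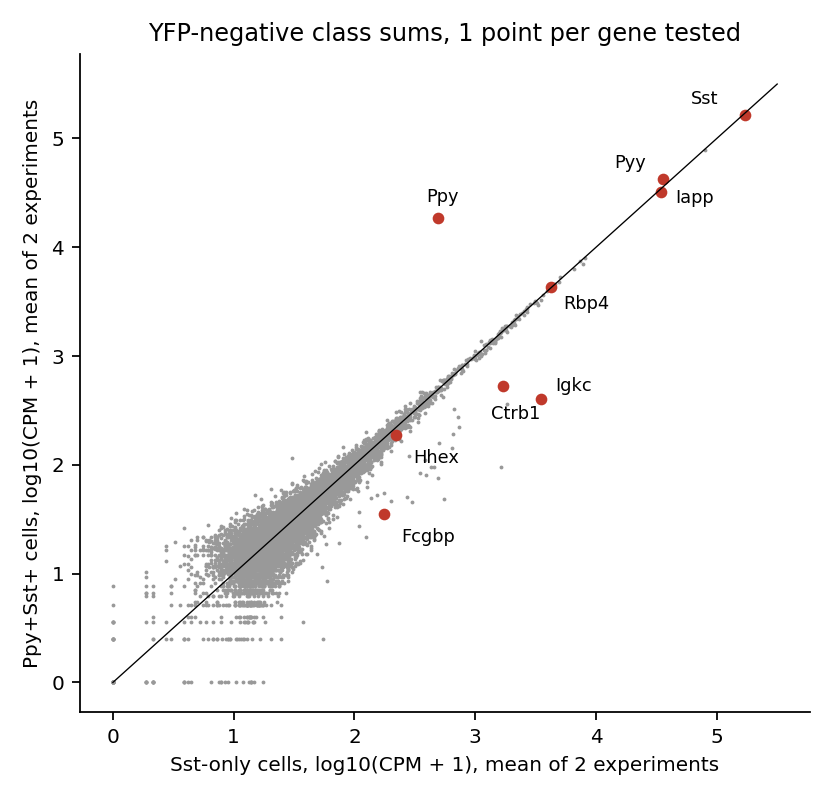
Level of each of the 8110 tested genes in YFP-negative Ppy+Sst+ cells against that in Sst-only cells, as log10(CPM + 1) of the mean of 2 experiments, with the line of equality. Ppy stands off the line on the upper side, Sst, Pyy, Iapp, Rbp4 and Hhex lie close to it, and Fcgbp, Ctrb1 and Igkc, whose Sst-only UMIs come mostly from 1 or a few cells, lie under it.

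With 0.0247% of all genes called between Ppy+Sst+ and Sst-only cells, a short list would seldom hold a call, and the lists are described by their values. Of 10 δ-cell genes, 9 were tested and 0 were called, with 0 at an unadjusted p under 0.05 and a median log2 fold change of 0.13, against -0.02 over all genes. Rbp4, a retinol carrier abundant in δ-cells, had 4838 and 3715 CPM in Ppy+Sst+ cells and 4693 and 3854 CPM in Sst-only cells (log2 fold change -0.02, SE 0.34). Ptprz1, a receptor-type phosphatase, had 102 and 99.4 CPM against 76.3 and 110 CPM (0.15, SE 0.34). Isl1, a LIM-homeobox factor of endocrine cells, had 466 and 513 CPM against 527 and 452 CPM (-0.03, SE 0.18). Ffar4, a fatty acid receptor found in δ-cells, had 126 and 73.2 CPM against 90.2 and 63.9 CPM (0.40, SE 0.40). Levels overlapped between the classes for all 4 genes, although Ffar4 was higher in Ppy+Sst+ cells within each experiment. The share of all genes with overlap is not given for this comparison, so this is a description only. The 95% intervals of the change ran from -0.75 to 0.71 for Rbp4 and from -0.46 to 1.25 for Ffar4.

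Of 9 listed γ-cell genes other than Ppy, 7 were tested and 0 were called, beside the same 0.0247% of all genes, with 0 at an unadjusted p under 0.05 and a median of 0.11. Etv1, an ETS-family factor, had 463 and 419 CPM in Ppy+Sst+ cells and 595 and 452 CPM in Sst-only cells (-0.27, SE 0.19). Tspan8, a tetraspanin of the cell surface, had 270 and 241 CPM against 274 and 189 CPM (0.11, SE 0.26). None of the 7 tested α-cell genes and none of the 10 tested β-cell genes was called, with 0 in each list at an unadjusted p under 0.05. DESeq2 added no call to these lists.

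The remaining groups held no call, beside 0.0247% of all genes. Of the granins and prohormone-processing genes, 0 of 10 tested were called (median 0.02). Chga, the granin of secretory granules, had 1346 and 1423 CPM against 1087 and 1146 CPM (0.28, SE 0.18), and Pcsk2, a prohormone convertase, had 4748 and 4479 CPM against 4554 and 4596 CPM (-0.02, SE 0.15). Of the islet transcription factors, 0 of 14 were called (median -0.03). Among 16 genes of excitation and exocytosis 0 were called and 3 had an unadjusted p under 0.05. These were Rab27a, which tethers granules, at 105 and 110 CPM against 57.2 and 77.6 CPM, Syt4, a synaptotagmin, at 48.1 and 15.7 CPM against 59.0 and 82.2 CPM, and Rab3a at 63.1 and 73.2 CPM against 93.6 and 100.5 CPM. In the receptor list 2 of 9 genes were tested and 0 called, and Sstr3, a somatostatin receptor, had 33.0 and 47.1 CPM against 50.3 and 86.8 CPM (unadjusted p = 0.0262, adjusted p = 1 by edgeR). Levels did not overlap between the classes for Chga, Rab27a, Syt4, Rab3a and Sstr3, while those of Pcsk2 did. The share of all genes without overlap is not given, so this too is a description only. Npy4r, the receptor of pancreatic polypeptide, had 0 UMIs in both classes. Immediate early genes had 0 of 10 called (1 at an unadjusted p under 0.05), genes of protein folding 0 of 16, cytosolic ribosomal protein genes 0 of 76 (median -0.01) and mitochondrially encoded genes 0 of 12 (median -0.04). Of 13 other islet peptides 3 were tested and 0 called, and none of 6 proliferation genes reached the filter.

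Markers of acinar cells summed to less in Ppy+Sst+ than in Sst-only cells, a difference that rested on a few cells. The 14 acinar genes summed to 814 and 3762 CPM in Ppy+Sst+ cells against 4991 and 11178 CPM in Sst-only cells, with Cela1 and Ctrb1 the most abundant in Ppy+Sst+ cells and Prss1 and Amy2a1 at 0 in both. Of 12 acinar genes tested 0 were called, 5 had an unadjusted p under 0.05, and the median was -2.08. Acinar UMIs were found in 68 of 78 and 35 of 59 Ppy+Sst+ cells and in 118 of 135 and 87 of 141 Sst-only cells, with medians of 3 and 1 and of 2 and 1 UMIs a cell. In Sst-only cells the 2 highest cells of each experiment held 89.9% and 94.9% of them, and in Ppy+Sst+ cells 14.0% and 87.9%. The UMIs outside these cells came to 700 and 455 CPM in Ppy+Sst+ and 503 and 566 CPM in Sst-only cells, which overlap. Ctrb1, a chymotrypsinogen, had 560 of its 602 UMIs in 1 Sst-only cell of experiment 1, and 857 and 154 of 1033 UMIs in 2 Sst-only cells of experiment 2. Igkc, an immunoglobulin chain, had 2690 of 2867 UMIs in 1 Sst-only cell of experiment 2. The 9 immune genes summed to 246 and 450 CPM against 172 and 1420 CPM, with Jchain at 1068 CPM in Sst-only cells of experiment 2. The 7 ductal genes summed to 141 and 429 CPM against 184 and 445 CPM, the 7 endothelial genes to 15.0 and 5.23 CPM against 15.6 and 103 CPM, the 7 stromal genes to 6.01 and 57.6 CPM against 3.47 and 158 CPM, and the 4 glial genes to 15.0 and 10.5 CPM against 6.94 and 13.7 CPM. Only 1 and 3 Ppy+Sst+ cells, and 1 and 11 Sst-only cells, held over 50 UMIs per 10000 of all these markers. The part of these cells in the unadjusted differences between the classes was not tested beyond leaving them out.

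The Sst+ cells were also placed in 4 bands of Ppy, with no UMI, with UMIs up to the threshold, from the threshold to a level of 5 and above it. In experiment 1 the bands held 55, 80, 33 and 45 cells, and in experiment 2, 44, 97, 37 and 22 cells. Ppy, which set the bands, went from 0 to 656, 8477 and 26101 CPM in experiment 1 and to 785, 7497 and 35983 CPM in experiment 2. Sst was 207495, 209366, 190604 and 189763 CPM in experiment 1 and 121041, 140176, 133737 and 148290 CPM in experiment 2, with no common direction. Pyy was 40688, 39690, 47333 and 57214 CPM in experiment 1, and 27299, 33081, 29970 and 34406 CPM in experiment 2. Hhex was 187, 196, 195 and 175 CPM in experiment 1 and 274, 240, 189 and 187 CPM in experiment 2, a fall across the bands in experiment 2 only, where the counting intervals of all 4 bands overlapped. Rbp4 stayed between 4518 and 4875 CPM in experiment 1 and between 3594 and 4229 CPM in experiment 2. The topmost band of experiment 2 includes the cell with 489 Ppy and 8 Sst UMIs, which also held 306 Pyy UMIs. Without it, an alternative chosen after seeing the data, the band had 31516 CPM of Pyy, under the 33081 CPM of the second band, so that the top band was highest for Pyy in experiment 1 only.

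**Figure D4:**
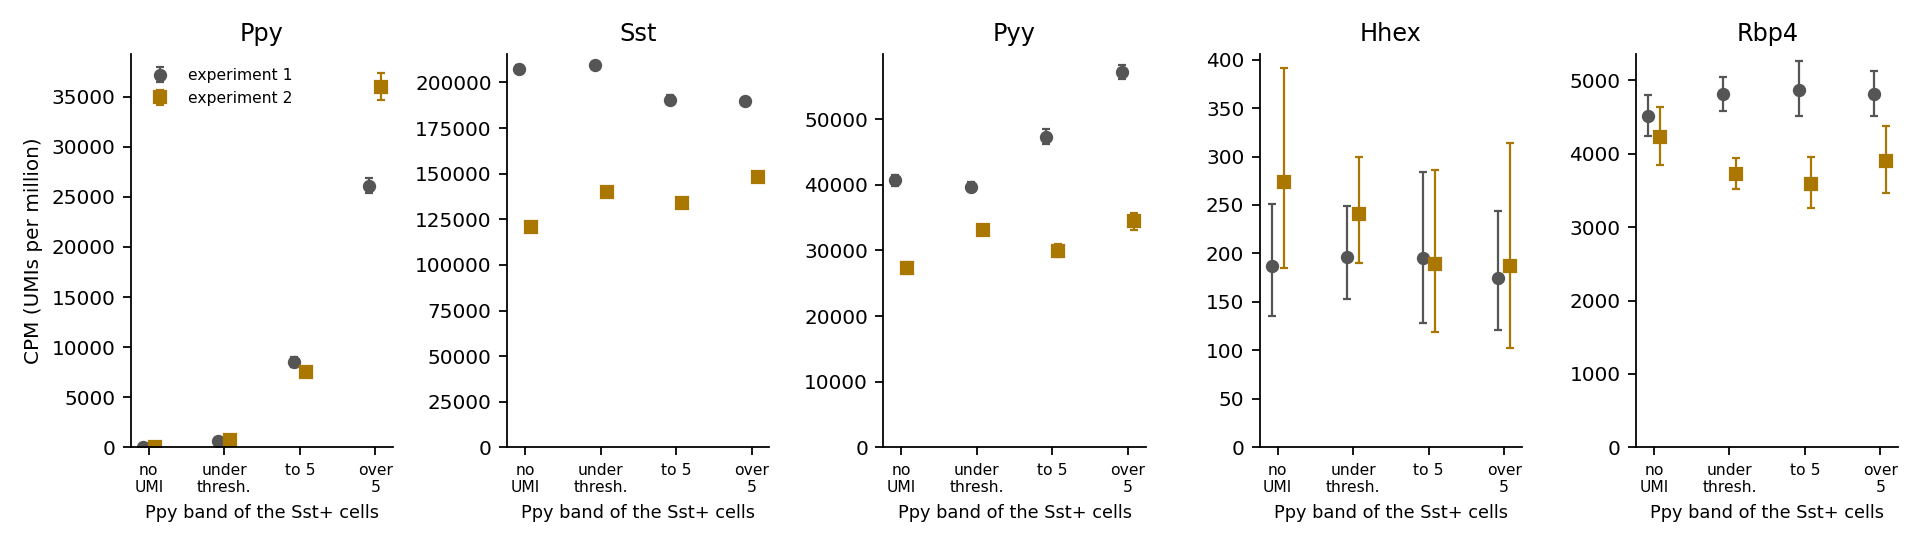
Summed level in CPM of Ppy, Sst, Pyy, Hhex and Rbp4 in 4 bands of Ppy among YFP-negative Sst+ cells, with 1 point and its exact 95% interval for each experiment. Ppy goes from 0 across the bands it defines to 26101 and 35983 CPM, while Hhex falls across the bands in experiment 2 and stays between 175 and 196 CPM in experiment 1, Rbp4 has no such order, and Sst is lowest in the top band in experiment 1 and highest there in experiment 2.

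The YFP- Ppy+Sst+ cells were then set beside the YFP+ Ppy+Sst+ cells, which share both hormones but come from other libraries. Sst, used by the rule, had medians of 1273 and 607 UMIs per 10000 in the YFP+ cells, with lower quartiles of 666 and 177. In the YFP- cells the lower quartiles were 1625 and 886. Sums of the YFP+ class thus hold cells of high and of low Sst. This comparison and the next use the same sums of the YFP- cells as the one above. Of 6385 genes tested, 83 were called (1.30%), 46 higher (0.720%) and 37 lower (0.579%) in the YFP- cells. Fold changes are relative to the shift of the median gene, whose CPM ratio was 0.16 and 0.37 (log2) in the 2 experiments. Without cells of doubtful type in either fraction there were 39 calls (0.659%), 16 higher (0.270%) and 23 lower (0.389%), of which 38 were among the 83. DESeq2 called 34. Ppy and Sst, used to choose the cells, differed by -3.14 and 1.11 on the log2 scale.

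Of 6 γ-cell genes tested 2 were lower in YFP- Ppy+Sst+ cells, and of 3 α-cell genes tested 3 were, beside 0.579% of all genes, with 1 gene on both lists. Of 13 islet transcription factors 2 were lower. Pyy had 53111 and 31706 CPM in YFP- cells and 130913 and 182068 CPM in YFP+ cells (log2 fold change -2.18, SE 0.21, adjusted p = 5.76e-06, edgeR). Ttr, transthyretin, a thyroid hormone carrier abundant in α- and γ-cells, had 366 and 591 CPM against 2021 and 2564 CPM (-2.56, SE 0.21), and stromal cells of the YFP- libraries had 245 and 473 CPM. Gc, the vitamin D-binding protein, had 90.1 and 94.2 CPM against 148 and 199 CPM (-1.19, SE 0.28), and Nkx2-2, a homeobox factor of endocrine cells, had 27.0 and 36.6 CPM against 56.4 and 88.2 CPM (-1.52, SE 0.33). Levels did not overlap between the fractions for any of these 4 genes. They are described because they were called, and the share of all genes without overlap is not given, so this is a description only. Gc and Nkx2-2 lost the call without the cells of doubtful type (adjusted p = 0.197 and 0.146, edgeR), while Pyy and Ttr kept it.

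The naming rule also gave YFP, Ell2 and rtTA as lower, which are not ranked by size here. YFP is the gene on which the cells were sorted. Ell2, an elongation factor of RNA polymerase, had 0 UMIs in YFP- Ppy+Sst+ cells of either experiment against 10 and 41 UMIs in YFP+ cells (16.6 and 36.9 CPM), and so passed the filter on low counts through the YFP+ cells alone. rtTA had 0 and 15.7 CPM against 353 and 155 CPM. Groups at 0 give no fold change here.

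Higher genes were in part those of cells other than islet endocrine cells. By the same rule they were the acinar enzymes Cpb1, Pnlip, Pnliprp1 and Cpa1 and the immunoglobulin chains Ighm and Igkc, which are not ranked by size here. Cpb1 had 15.0 and 267 CPM in YFP- Ppy+Sst+ cells and 0 UMIs in YFP+ ones. There Pnlip had 1 and 3 UMIs, Pnliprp1 0 and 2 and Cpa1 1 and 0. These acinar genes and Ighm thus passed the filter on low counts through other cells. Igkc had 369 and 429 CPM against 9.96 and 1.80 CPM, and stromal cells of the YFP- libraries had 430 and 386 CPM. Ighm had 48.1 and 41.9 CPM against 0 UMIs, with 22.3 and 56.0 CPM in stromal cells. Ins1, an insulin gene, had 2586 and 1292 CPM against 357 and 354 CPM (2.08, SE 0.25), with 2464 and 1076 CPM in stromal cells. Of 12 acinar genes tested 8 were higher, beside 0.720% of all genes, and 2 of 8 without the cells of doubtful type, beside 0.270%. The 8 include Cpb1, Cpa1 and Pnlip, at or near 0 UMIs in YFP+ cells, so the count is a description only. The 14 acinar genes summed to 264 and 250 CPM in the YFP+ class. The levels of Igkc and Ins1 in stromal cells came close to those of the Ppy+Sst+ cells of the same fraction. For Ighm this held in experiment 2, while in experiment 1 stromal cells had 22.3 CPM, from 3 UMIs, against 48.1 CPM. The part of RNA from other cells in these 3 results was not tested.

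Of 9 δ-cell genes tested between the fractions, 0 were called, beside 1.30% of all genes, with 6 at an unadjusted p under 0.05 and a median of 0.71 against 0.01 over all genes. The share of all genes under that unadjusted cut is not given for this comparison, so the 6 are a description only. Hhex had 183 and 188 CPM in YFP- cells and 113 and 83.7 CPM in YFP+ cells (0.69, SE 0.21, adjusted p = 0.167, edgeR). Rbp4 had 4838 and 3715 CPM against 2899 and 1565 CPM (0.71, SE 0.15, adjusted p = 0.0172), just short of the fold threshold of 0.72. Other genes passed the test with higher levels. Gap43, a growth-cone protein, had 378 and 267 CPM against 181 and 79.2 CPM (1.09, SE 0.17), and Bambi, a decoy receptor of TGF-β signalling, had 132 and 262 CPM against 48.1 and 101 CPM (1.11, SE 0.20). Both kept the call without the cells of doubtful type. Dpp6, a potassium channel partner, had 240 and 157 CPM against 89.6 and 72.9 CPM (1.05, SE 0.21), and lost it (adjusted p = 0.156). Gap43, Bambi and Dpp6 were chosen after their values were seen. Btg2, an immediate early gene, was lower, at 123 and 141 CPM against 272 and 222 CPM (-1.21, SE 0.21). Of 10 immediate early genes it was the single one called. Of 5 immune genes 2 were higher, Cd74, which the rule used, and Jchain, an immunoglobulin joining chain, at 33.0 and 62.8 CPM against 0 and 1.80 CPM. Jchain, with 0 and 2 UMIs in the YFP+ cells, passed the filter on low counts through other cells, so this count is a description only. Of 12 mitochondrially encoded genes 1 was lower, mt-Nd4l, at 60.1 and 78.5 CPM against 126 and 121 CPM, which lost the call without the cells of doubtful type. Beside 1.30% of all genes, 0 of 10 granin and processing genes, 0 of 14 excitation genes, 0 of 16 folding genes, 0 of 76 ribosomal protein genes, 0 of 4 ductal genes and 0 of 2 stromal genes were called.

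**Figure D5:**
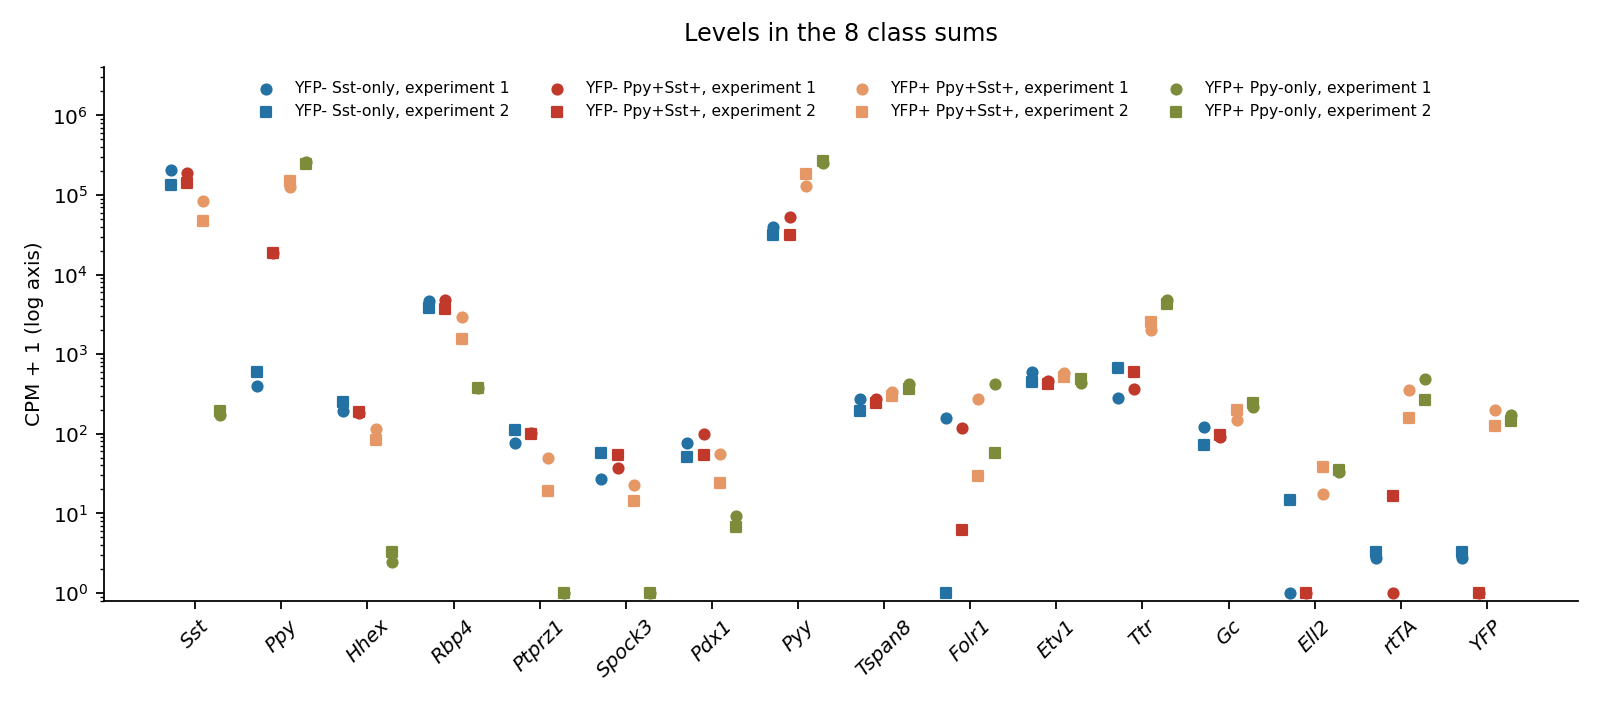
Level as CPM + 1, on a log axis, of 16 genes in YFP-negative Sst-only, YFP-negative Ppy+Sst+, YFP-positive Ppy+Sst+ and YFP-positive Ppy-only cells, with 1 point for each experiment. For Hhex, Rbp4 and Ttr the YFP-negative Ppy+Sst+ points lie with the Sst-only points, and YFP-positive Ppy+Sst+ points lie between these and the Ppy-only points.

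Against YFP+ Ppy-only cells the difference was broad. Of 6385 genes, 656 were called (10.3%), 413 higher (6.47%) and 243 lower (3.81%) in YFP- Ppy+Sst+ cells. The median gene shifted by 0.72 and 0.85 (log2 CPM ratio) and changes are relative to it. Without cells of doubtful type 661 genes were called (11.2%), 409 higher (6.91%) and 252 lower (4.26%), 592 of them in common. Of 9 δ-cell genes 6 were higher, namely Hhex, Rbp4, Ptprz1, Spock3, Pdx1 and Ffar4. Hhex had 183 and 188 CPM against 1.46 and 2.26 CPM (5.83, SE 0.29, adjusted p = 8.58e-11, edgeR). Ptprz1 had 102 and 99.4 CPM and Spock3 36.0 and 52.3 CPM, each against 0 UMIs. Both passed the filter on low counts through other classes alone, so they give no fold change and their place in the count is a description only. Iapp had 32806 and 31261 CPM against 2580 and 2410 CPM (2.89, SE 0.11). Of 6 γ-cell genes 5 were lower, among them Pyy, Tspan8, Folr1 and Etv1. Etv1 was lower only relative to the shift of the median gene, since its levels overlapped at 463 and 419 CPM against 430 and 488 CPM (-0.85, SE 0.17). Tspan8 had 270 and 241 CPM against 416 and 367 CPM (-1.40, SE 0.17). Pyy had 53111 and 31706 CPM against 249953 and 270319 CPM (-3.42, SE 0.22). Lists of other kinds moved too. Of 12 acinar genes 12 were higher (4 of 8 without the cells of doubtful type), and of 5 immune genes 4 were, among them Cd74 of the rule. Of 10 immediate early genes 5 were lower relative to that shift, namely Btg2, Fos, Jun, Junb and Zfp36, and of 12 mitochondrially encoded genes 3 were, mt-Nd3, mt-Nd4l and mt-Nd5. Levels overlapped for Fos, at 138 and 267 CPM against 239 and 165 CPM, and for Junb, at 144 and 88.9 CPM against 160 and 80.2 CPM. Both were higher in CPM in experiment 2. Those of mt-Nd5 overlapped too, at 192 and 146 CPM against 257 and 148 CPM. The part of these other lists in the δ- and γ-cell counts was not tested. Folr1, a folate receptor, differed between experiments in every class, with 117 and 5.23 CPM against 426 and 56.8 CPM. Since class, sort fraction and library go together here, they cannot be told apart.

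Bulk RNA-seq of other animals gave the direction of these genes between sorted γ-cells (5 YFP+ libraries of Ppy-YFPi mice) and δ-cells (3 libraries of Sst-Cre; R26-YFP mice, labelled in every cell that has ever expressed Sst). Both were 2 months old and of mixed background, and the labels give DOX at 1 mg/ml for both. γ-cell libraries were read from both ends and δ-cell libraries from 1 end, on a different instrument. Instrument, read layout and cell type therefore cannot be told apart. In bulk samples fewer cells of a type and less RNA per cell cannot be told apart either. Of 17926 genes, 3715 (20.7%) were higher and 2553 (14.2%) lower in γ-cells, where calls needed a 2-fold change at an adjusted p no higher than 0.05. The δ-cell libraries held much RNA of acinar genes, whose 14 listed members summed to 106067, 93087 and 24966 CPM, against 2364 to 13560 CPM in γ-cell libraries. Ppy had 10889, 16501 and 12141 CPM in the 3 δ-cell libraries and 87365 to 116446 CPM (median 96794) in γ-cell libraries. Sst had 69804, 87128 and 101118 CPM in δ-cells and 7119 to 11511 CPM (median 8767) in γ-cells. Hhex had 245, 189 and 271 CPM in δ-cells and 29.3 to 52.8 CPM (median 41.1) in γ-cells. Neither hormone nor Hhex overlapped between the bulk groups, and the part of other cells in the Ppy of δ-cell libraries was not tested.

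Of the 36 genes lower in YFP- than in YFP+ Ppy+Sst+ cells, Ppy apart, 31 were tested in bulk, where 28 were higher in γ-cells and 2 lower, beside 20.7% and 14.2% of all genes. Of the 43 genes higher, without Sst, Ins2 and Cd74, 40 were tested, where 3 were higher in γ-cells and 29 lower. Without the genes of the lists of other cell types, Pnliprp1, Ighm and Igkc, an alternative chosen after seeing the data, 28 of these were tested, where 3 were higher and 20 lower. Without cells of doubtful type, 17 of 19 tested lower genes were higher in γ-cells and 2 lower, whereas 2 of 12 tested higher genes were higher and 6 lower (2 and 4 of 7 without those of other cell types). These counts are over called genes alone. Over all genes with at least 50 CPM, those higher in bulk γ-cells (364) had a median log2 change of 0.01 between the fractions and those lower (261) one of 0.18, beside 0.03 over all 2210 such genes, with 19 and 2 called lower and 3 and 23 called higher. Against YFP+ Ppy-only cells the medians were 0.06 and 0.30, beside -0.02. Against Sst-only cells, genes with at least 50 CPM that bulk γ-cells expressed at a higher level (369 genes) had a median log2 change of 0.02, and those at a lower level (287 genes) a median of -0.04, beside -0.02 over all 2343 such genes. Of the 369 genes 0 were called, and of the 287 genes 1 was called (Fcgbp).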

How the data were processed

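The authors made the 4 single-cell libraries with the 10x Chromium 3' v2 chemistry, aligned and counted them with Cell Ranger on mm10 with the YFP and rtTA sequences added, kept cells with at least 500 genes, 1000 UMIs and at most 7% mitochondrial UMIs, and deposited raw UMI counts. Bulk reads were aligned with STAR 2.7.2b, counted with HTSeq 0.9.1 in union mode on GRCm38.p6 and deposited as raw counts per gene, and the 6 columns of this table that belong to sorted α- and β-cells stayed unused. Bulk libraries held 7641916 to 31784878 counted reads.

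Cells, gene lists and comparisons were chosen with earlier results of these data known. UMIs were summed per class and experiment (332961 and 191131 UMIs for the Ppy+Sst+ cells, 576617 and 438022 for Sst-only cells) and tested with edgeR 4.0.16 in R 4.3.3 (TMM, filterByExpr, quasi-likelihood F-test, Benjamini-Hochberg adjustment). The experiment was a block, as the study regressed it out, and 8 sums per fit shared 1 estimate of the spread. Sums of the same experiment deviated together (r = 0.286 across genes for the 2 YFP- classes). Gcg-only and Ins2-only sums joined the comparison with Sst-only cells. Bulk counts were tested in the same way without a block, for genes with a mean of at least 5 counts. Named genes were those of the lists and, from the comparison of the fractions, the 6 with the largest change in each direction among called genes with the same direction in both experiments and at least 10 CPM in the higher class, predicted genes unnamed. The comparison with Sst-only cells had the same rule for 12 genes, without the hormones and markers that chose the cells, and no gene met it. A few genes picked this way were left unreported here. Exact intervals are at 95%. Doublets were marked at 2% of cells per experiment. Gene positions are from GENCODE M21. Scripts were tested on simulated data. Alternatives were DESeq2 1.42.0, other normalizations, filters, thresholds, depths and classes, and each replicate left out. Python 3.11.15, numpy 2.4.6, scipy 1.17.1, pandas 2.3.3 and matplotlib 3.10.9 were used.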

Additional observations from a re-analysis of the deposited data

Results flagged for a closer look

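In bulk γ-cells, 1 library stood apart from the other 4 in Ighm, an immunoglobulin chain, with 145 CPM against 3.62 to 15.1 CPM. The gap of this library to the next, as a share of the range, exceeded Dixon's 95% critical value for 5 samples, which chance alone exceeds in about 1 in 20 groups. It was 1 of 18 groups of γ-cell libraries tested, 1 for each of 18 genes, while δ-cells had too few libraries for it. Ighm was also among the genes higher in YFP- than in YFP+ Ppy+Sst+ cells.

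The 14 YFP- Ppy-only cells of experiment 2, which enter no comparison, held 11 rtTA UMIs in 3 cells (167 CPM, 0.777 per 1000 Ppy UMIs, exact Poisson interval 0.388 to 1.39) and 0 YFP UMIs. The 2 such cells of experiment 1 held 0 rtTA UMIs.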

How the results depend on the processing

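Against Sst-only cells, the 2 called genes became 1, Ppy alone, under the Bonferroni adjustment, without a replicate block, with DESeq2, with cells of at least 2000 UMIs and with Sst-only cells that hold no Ppy UMI. The number rose to 28 with only the 2 classes in the fit, 38 without a filter on low counts, 13 with the Ppy threshold raised by 1, and 18 without cells holding a UMI of Cd74, Col3a1 or Plvap, of which 27, 36, 12 and 17 were lower. Alternatives chosen after seeing the data gave 3 calls with markers of other cells limited to 50 UMIs per 10000, 1 with the Sst threshold raised by 2, 1 with both, 1 with both and only the 2 classes, and 2 with both and no filter. Leaving out an experiment, which leaves 1 sum a class and keeps only calls with the same direction and size in the other, gave 1 to 2 calls. Fcgbp fell by 2.65 without a replicate block and by 2.22 with DESeq2 (neither called), and its change was 1.24 with at least 2000 UMIs, 0.24 against cells without Ppy UMIs, 1.37 with the Sst threshold raised by 2, 1.81 with the marker limit as well and 1.77 with both and no filter. With the marker limit alone it was -2.39. It was -2.35 to 0.76 with an experiment left out, where 0.76 is experiment 1 alone, in which Fcgbp had 0 UMIs in both classes and the value carries no information on the gene. Sst was at 0.066 against cells without Ppy UMIs. With an experiment left out it ranged from -0.16 to 0.016 and Pyy from -0.023 to 0.38. The cause was not tested.

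Between the fractions, 83 calls became 12 without a replicate block, 139 without a filter, 34 with DESeq2 and 39 without cells of doubtful type, and 73 to 80 with an experiment left out. Against YFP+ Ppy-only cells, 656 became 404 without a replicate block and 386 with DESeq2, and 597 to 602 with an experiment left out. Bulk calls stayed between 5384 and 7590 in every alternative, with 5384 for replicate numbers as a block, although these did not pair the libraries (r = -0.181, 0.0760 and -0.313), and 5482 to 6255 with a library left out. The share of Sst+ cells above the Ppy threshold, 33.1% as the mean of both experiments, was 25.1% with the threshold raised by 1 and 40.2% with it lowered by 0.5, and 29.5 to 36.6% in single experiments. rtTA per 1000 Ppy UMIs ranged from 0 to 0.842 and the ratio of depths from 1.02 to 1.03 with an experiment left out. Depth limits statements on genes of low level, and 2 pooled experiments limit all tests on single-cell sums.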
